A study of Mus musculus with 4 samples.

Results

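A set of 7 genes of lymphocyte recirculation and residency, Klf2, Klf6, Cxcr4, Cd69, Il7r, Bhlhe40 and Tsc22d3, was followed in immune cells sorted from MC38 tumours. The genes were chosen by name, with earlier results of these data in view, and are 7 of the 22631 genes in the count tables. MC38 is a mouse colon carcinoma line, here grown for 7 days in the flank of reporter mice that carry an EYFP gene behind the IL-12p40 gene (IL-12p40-IRES-EYFP). The groups were 1 untreated mouse and 2 mice given 5 mg/kg of agonist anti-CD40 antibody into the peritoneum, and every mouse carried the reporter. Tissue was digested 2 days after treatment, CD45+ cells were sorted after 7AAD labelling, and single cells were sequenced with inDrops, which counts unique molecular identifiers (UMIs) per gene and cell. Mouse age and the background strain were not given in the sources used here. CD40 is a receptor of B cells, dendritic cells and macrophages.

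Circulating lymphocytes leave tissue along a gradient of sphingosine-1-phosphate, and KLF2 is the transcription factor that keeps the receptor for this lipid expressed. CD69 binds and removes that receptor from the surface, and CXCR4 holds cells near its ligand CXCL12. The IL-7 receptor alpha chain (Il7r) gives naive and memory T cells a survival signal, BHLHE40 is a basic helix-loop-helix repressor used by activated and tissue-resident T cells, and GILZ, the product of Tsc22d3, is induced by glucocorticoids. KLF6 is a zinc finger factor of the same family as KLF2, with an immediate early response in many cells.

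The 4 cell types set side by side were those of the deposited annotation: T cells, NK cells, neutrophils, and a class of monocytes, macrophages and dendritic cells (MoMacDC). They held 150, 48 and 135 T cells in the untreated tumour, treated tumour 1 and treated tumour 2, against 41, 28 and 128 NK cells, 49, 700 and 215 neutrophils, and 1136, 448 and 1330 MoMacDC. No cell barcode was shared between the 12 libraries. Untreated cells were shallower, with a median of 475.5 UMIs in T cells against 778 and 651 in treated ones, and 500 against 1230 and 832.5 in NK cells. All 11 T cell markers were detected in the T cells of each tumour, and all 9 NK markers in the NK cells. Cd3e, Cd4 and Cd5 were at 0 in the NK cells of all 3 tumours, and 41.5%, 67.9% and 57% of these cells held a UMI of at least 1 of 6 CD3 and T cell receptor constant genes. Shares of T cells with a marker UMI, counted without thinning, also differed. A CD3 or T cell receptor constant UMI was held by 72.7% of untreated T cells against 91.7% and 91.9% of treated ones. A Cd4 UMI without a Cd8 UMI was held by 13.3% against 33.3% and 29.6%. The part of the lower depth of untreated cells in these shares was not tested. Per 10000 UMIs, the 11 T cell markers summed to 55.3 in untreated T cells and to 70.7 and 61.2 in treated ones. In untreated T cells 12 myeloid markers summed to 23.8 per 10000 UMIs (10 of 12 detected, Flt3 and Cd209a at 0), against 1.62 (4 of 12) and 2.06 (6 of 12) in the treated tumours. In NK cells the same markers summed to 13.7, 0.517 and 1.06. Neutrophil markers in T cells went the other way, at 1.18, 12.7 and 11.03, and 1 cell held 87.5% of the S100a8 UMIs in T cells of treated tumour 1 and 100% of those in treated tumour 2.

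Promoters of 2 genes are shown for orientation, those of the 2 family members Klf2 and Klf6, because both genes rose in T cells. Klf2 lies on chromosome 8 (GRCm38, 72319033 to 72321656, plus strand) and Klf6 on chromosome 13 (5861482 to 5870394, plus strand). Each window runs 5′ to 3′ from 250 bases before to 50 bases after the RefSeq start (GRCm38.p6), and capitals mark the E-box CACGTG.
Klf2, chr8:72318812-72319111, plus strand: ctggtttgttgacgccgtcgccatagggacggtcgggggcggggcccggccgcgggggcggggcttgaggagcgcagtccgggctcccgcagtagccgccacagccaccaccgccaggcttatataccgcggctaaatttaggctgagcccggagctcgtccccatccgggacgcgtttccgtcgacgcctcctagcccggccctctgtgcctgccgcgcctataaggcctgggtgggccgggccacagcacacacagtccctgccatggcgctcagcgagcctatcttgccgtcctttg
Klf6, chr13:5861239-5861538, plus strand: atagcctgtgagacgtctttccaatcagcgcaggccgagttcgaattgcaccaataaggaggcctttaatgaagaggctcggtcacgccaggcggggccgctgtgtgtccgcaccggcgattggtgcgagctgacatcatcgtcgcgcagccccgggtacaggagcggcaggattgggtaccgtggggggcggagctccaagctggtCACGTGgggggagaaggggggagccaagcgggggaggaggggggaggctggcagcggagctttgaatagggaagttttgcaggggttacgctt
The Klf6 window held 1 CACGTG, the E-box that BHLHE40 can bind, 43 bases before the start, and the Klf2 window held none. RefSeq windows matched 5 of the 7 genes (Klf2, Klf6, Cxcr4, Il7r and Tsc22d3, the last with 3 starts). Apart from that match, none of them held CACGTG, the forkhead motif GTAAACA or the AP-1 motif TGANTCA on either strand. Among 32851 promoters of the same length, 7.15% held CACGTG, 3.65% GTAAACA and 7.81% TGANTCA. A match is a description of letters and not a bound site.

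In T cells, 6 of the 7 genes were higher after anti-CD40: Klf2, Klf6, Cxcr4, Il7r, Bhlhe40 and Tsc22d3. Cd69 did not pass the test. The edgeR quasi-likelihood test on UMIs summed per tumour called 39 of 1865 genes in T cells at an adjusted p below 0.05 (2.09%), of which 19 were higher (1.02%). The 6 genes are thus 6 of those 19, in a set that was picked with these results known.

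**Figure D1:**
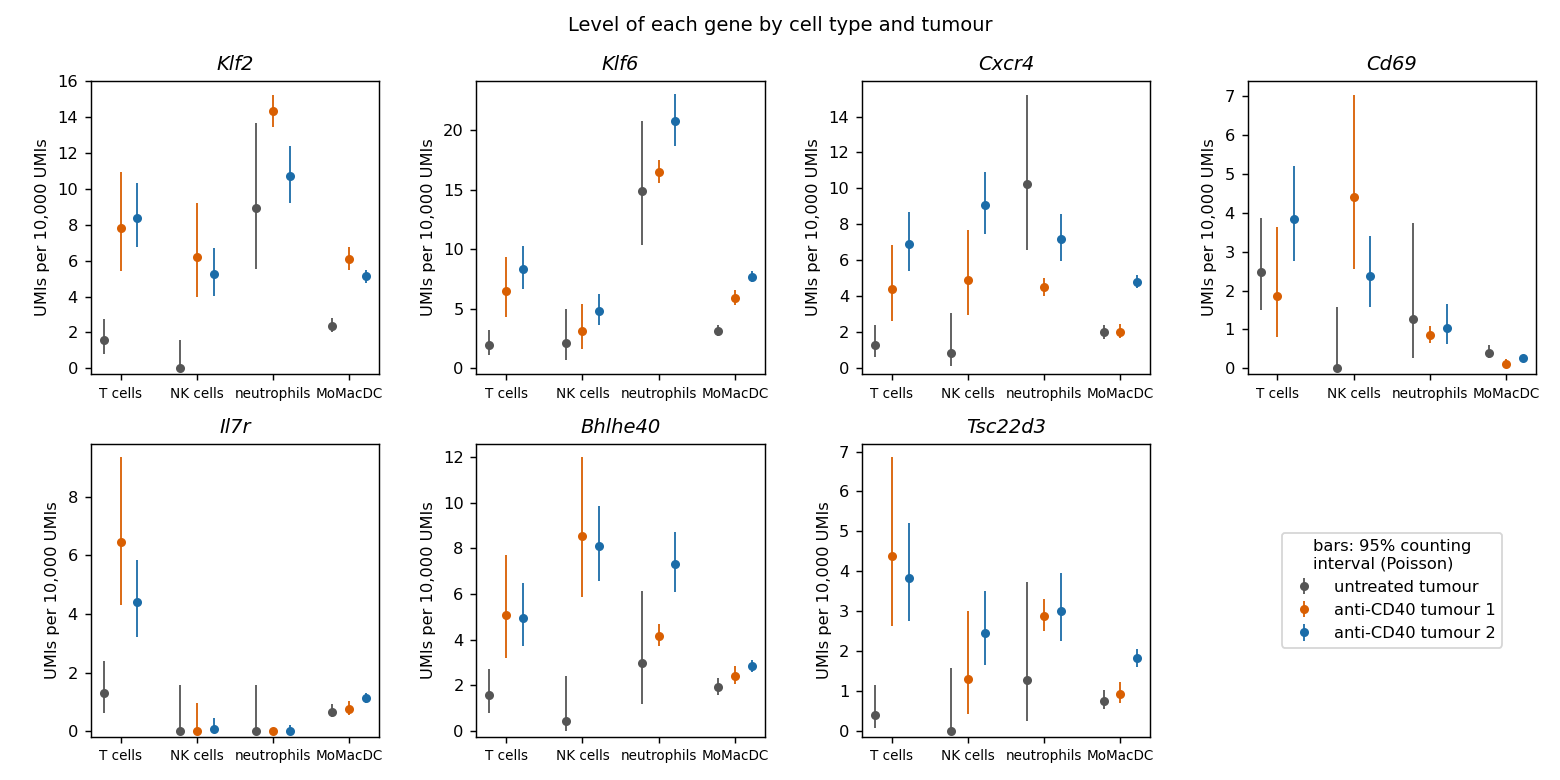
Level of each gene in UMIs per 10000 UMIs (vertical axis) in the 4 cell types (horizontal axis), with 1 point per tumour and bars for the 95% Poisson counting interval. In T cells both treated tumours lie above the untreated one for every gene except Cd69, and Il7r is near 0 in NK cells and neutrophils. The share of all genes with that order in T cells was not counted.

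Levels below are UMIs per 10000 UMIs of the cell type, and intervals cover counting error only. Klf2 stood at 1.57 in untreated T cells (12 UMIs), 7.85 in treated tumour 1 (34 UMIs) and 8.41 in treated tumour 2 (90 UMIs). The treated tumours lay close together, at a joint ratio to the untreated tumour of 5.26 (95% interval 2.91 to 10.5), and the fitted log2 change was 2.36 ± 0.44 (SE; edgeR adjusted p = 1.08e-05). Over single libraries, which are parts of 1 tumour and not replicates, 7 of 8 treated libraries exceeded all 4 untreated ones. How many of all genes show such an order, by library or by tumour, was not counted for any cell type. Klf6 stood at 1.96, 6.47 and 8.32 in the same order, with a log2 change of 1.94 ± 0.42 (edgeR adjusted p = 0.000414). All 8 treated libraries, from 3.32 to 10.5, exceeded the 4 untreated ones, from 1.10 to 2.96.

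Of the retention receptors, Cxcr4 differed between the groups and Cd69 did not pass. Cxcr4, on chromosome 1 (128588199 to 128592293, minus strand), stood at 1.31 in untreated T cells and at 4.39 and 6.92 in the treated tumours. Its log2 change was 2.17 ± 0.47 (edgeR adjusted p = 0.000375), and 6 of 8 treated libraries exceeded all untreated ones, while 1 treated library held no Cxcr4 UMI. Cd69, on chromosome 6 (129267325 to 129275436, minus strand), stood at 2.48 untreated, 1.85 in treated tumour 1 and 3.83 in treated tumour 2. The treated tumours lay on either side of the untreated one, and the log2 change of 0.33 had a 95% interval from -0.54 to 1.20 (edgeR adjusted p = 0.825).

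Il7r, on chromosome 15 (9505788 to 9530176, minus strand), stood at 1.31 (10 UMIs) in untreated T cells, 6.47 (28 UMIs) in treated tumour 1 and 4.39 (47 UMIs) in treated tumour 2. The untreated value was the lowest, and the log2 change was 1.95 ± 0.48 (edgeR adjusted p = 0.00354). Before thinning, 6% of untreated T cells held an Il7r UMI against 35.4% and 27.4% of treated ones. The difference was smaller with cells thinned to 300 UMIs, at 5.65% against 10.6% and 14.2%, with overlapping exact binomial intervals. Thinning left out 26, 1 and 8 shallower T cells. In neutrophils, which serve as a background for free RNA, an Il7r UMI was held by 0 of 49, 1 of 700 and 0 of 215 cells, at median depths of 435, 926 and 668 UMIs.

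Bhlhe40 stood at 1.57, 5.08 and 4.95 in T cells, a log2 change of 1.65 ± 0.46 (edgeR adjusted p = 0.02), with 7 of 8 treated libraries above all untreated ones. Its gene on chromosome 6 (108660629 to 108666925, plus strand) overlaps exons of 0610040F04Rik on the other strand, and strand use in counting was not stated, so its counts are uncertain to that degree. Tsc22d3, on chromosome X (140539528 to 140600659, minus strand), had 3 UMIs in untreated T cells, 19 in treated tumour 1 and 41 in treated tumour 2. That is 0.392, 4.39 and 3.83, a ratio of 10.2 with a counting interval from 3.32 to 50.8 (edgeR adjusted p = 4.9e-05).

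**Figure D2:**
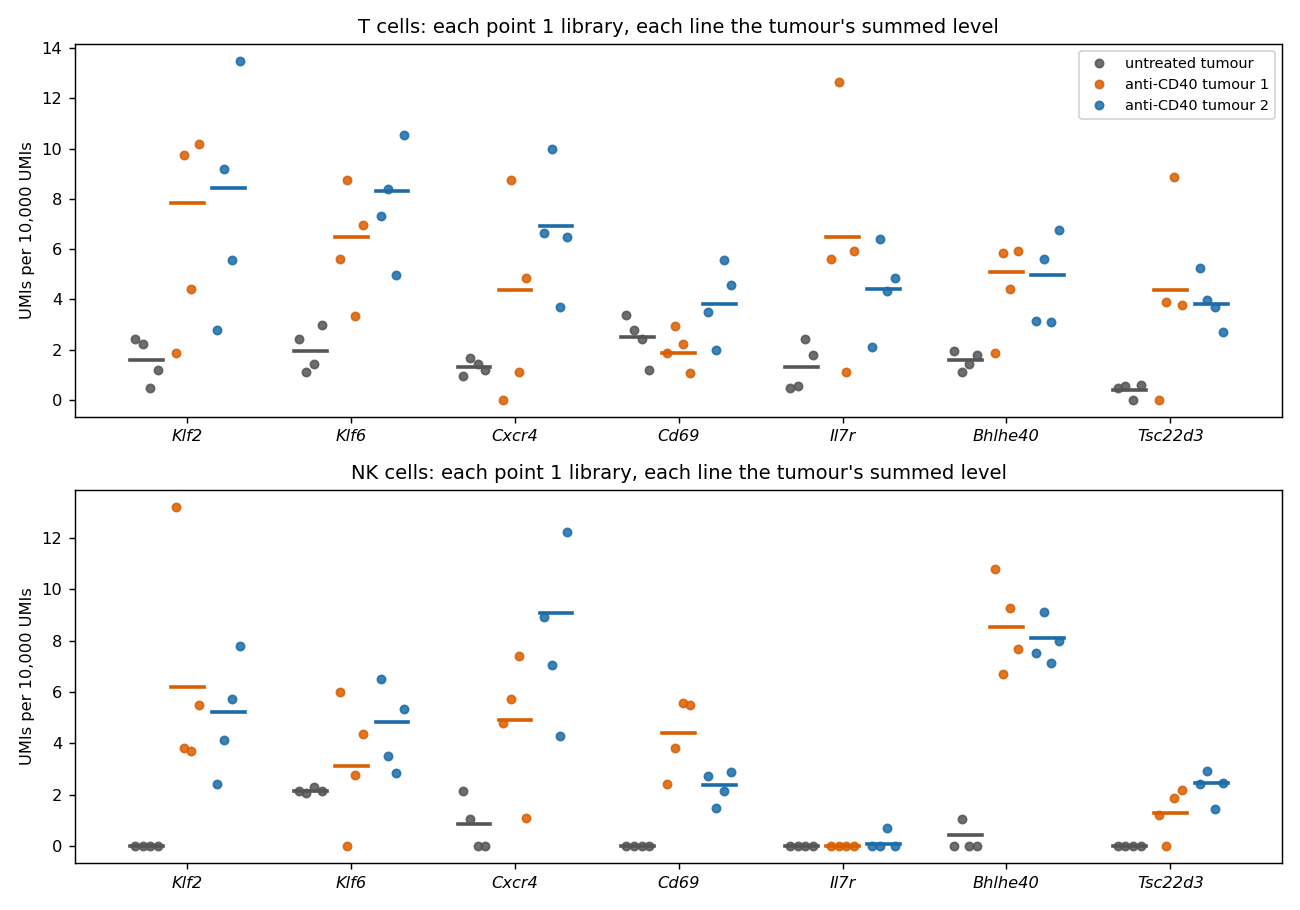
Levels in UMIs per 10000 UMIs (vertical axis) in single libraries of T cells (upper panel) and NK cells (lower panel), with points for libraries and lines for each tumour's summed level. Klf6 in T cells, and Klf2, Cd69 and Bhlhe40 in NK cells, have all 8 treated libraries above the 4 untreated ones. The share of all genes with that order was not counted.

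The untreated tumour shared sequencing pools 1 and 2 with treated tumour 1, and within each of these pools all 6 genes were higher in treated T cells. These cells are part of the fit that called the 6 genes, so the direction within pools is no separate support. In pool 1 Klf2 stood at 2.31 untreated (9 UMIs) and 7.04 treated (11 UMIs) and Il7r at 0.515 (2 UMIs) and 10.2 (16 UMIs). In pool 2 Klf2 stood at 0.796 (3 UMIs) and 8.31 (23 UMIs) and Il7r at 2.12 (8 UMIs) and 4.34 (12 UMIs). An alternative chosen after seeing the data left out T and NK cells with any UMI of shorter marker sets. These were Lyz2, Csf1r, C1qa, C1qb, C1qc and Ms4a7 (myeloid) and S100a8, S100a9, Csf3r, Cxcr2, Retnlg and G0s2 (neutrophil). It left out 18.7%, 10.4% and 5.19% of T cells and kept all 6 calls, with a log2 change of 2.63 for Klf2. Cells with UMIs of other myeloid markers only, such as Cd68 or Mrc1, stayed in. With all T cells thinned to 300 UMIs only Klf2 and Cxcr4 passed, and DESeq2 called none of the 7 after adjustment. Leaving out pool 2 ended the calls of Klf2 (edgeR adjusted p = 0.1), Tsc22d3 (0.104) and Bhlhe40 (0.365), leaving out pool 1 those of Il7r (0.388) and Bhlhe40 (0.0719), and leaving out pool 4 or the filter on low counts that of Bhlhe40 (0.215 and 0.163).

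Of the partner genes, Cd74, Jund and Hspa1a passed in T cells, where 2.09% of all tested genes did. Of 14 recirculation and naive state genes 9 were tested and none passed (median log2 change 0.29, against 0.03 over all genes): Itgb7 stood at 7.71, 7.62 and 4.67 and Satb1 at 4.31, 5.77 and 5.05. Of 10 tested residency genes none passed (median -0.10). Ccl5, a chemokine gene, stood at 4.57, 12.9 and 8.22 (edgeR adjusted p = 0.0518), Rgs2 at 8.49, 4.39 and 14.8 and Nr4a1 at 8.49, 6.24 and 5.89. In the IL-7 receptor pathway none of 9 passed (median 0.28), and the shared gamma chain Il2rg stood at 7.18, 5.54 and 7.01, Jak1 at 7.45, 8.08 and 9.72 and Cish at 6.14, 7.39 and 5.51. Of 7 tested glucocorticoid targets none passed (median 0.13): Dusp1 stood at 6.40, 10.4 and 11.6, Ddit4 at 10.3, 9.24 and 5.23 and Zfp36 at 3.40, 8.78 and 6.73. Of the other Kruppel-like factors with Bhlhe41 only Klf13 was tested, at 2.61, 1.39 and 1.96, and Klf4 and Klf7 had at most 13 UMIs in a tumour.

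In the CXCR4 pathway 1 of 6 tested genes passed, and it was lower. Cd74, the invariant chain of MHC class II and a receptor for MIF, stood at 14.1 in untreated T cells and 3.46 and 2.34 in treated ones (log2 change -2.38 ± 0.33, edgeR adjusted p = 4.64e-10). Like the sum of the 12 myeloid markers given above, it was lower in both treated tumours, and their part in its change was not tested. Gnai2 stood at 14.8, 9.70 and 8.32 and Grk2 at 3.13, 3.46 and 4.58. Of 16 tested dissociation stress genes 2 rose in T cells (median 0.58). Jund, an AP-1 gene, stood at 6.01, 14.1 and 17.4 (log2 change 1.40 ± 0.30, edgeR adjusted p = 0.000377). Hspa1a had 0, 1 and 43 UMIs, nearly all in treated tumour 2 (edgeR adjusted p = 0.0425). The most abundant of the list, Hspa8 at 18.3, 18.7 and 25.7, Btg1 at 13.8, 15.5 and 19.0 and Nfkbia at 22.6, 18.7 and 18.3, did not pass. The whole list summed to 98.7, 110 and 142 per 10000 UMIs, and its part in the changes of the 6 genes was not tested.

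In NK cells, Klf2, Cxcr4, Cd69 and Bhlhe40 were higher after treatment, 4 of the 5 genes that could be tested, where 15 of 794 genes were called (1.89%) and 8 were higher (1.01%). Il7r and Tsc22d3 fell below the filter on low counts. Each call rests on 0 to 2 UMIs among 23315 UMIs of 41 untreated NK cells. Klf2 had 0, 24 and 64 UMIs, which is 0, 6.20 and 5.24, at least 4.25-fold higher when the untreated sum is set at a floor of 3 counts (edgeR adjusted p = 0.00154). None of the 4 untreated libraries and each of the 8 treated ones held a Klf2 UMI. Bhlhe40 had 1, 33 and 99 UMIs, or 0.429, 8.53 and 8.10, a ratio of 19.1 with a counting interval from 3.37 to 761 (edgeR adjusted p = 0.0049). A Bhlhe40 UMI was held by 2.44% of untreated NK cells, against 57.1% and 45.3% of treated ones, and after thinning by 0 of 35, where 3 counts would be a share of 8.57% of cells with a UMI, against 18.5% and 24.6%.

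Both retention receptors were among the 4. Cxcr4 had 2, 19 and 111 UMIs, or 0.858, 4.91 and 9.08, a ratio of 9.42 with a counting interval from 2.56 to 78.6 (edgeR adjusted p = 0.0402). Cd69 had 0, 17 and 29 UMIs, or 0, 4.39 and 2.37, at least 2.22-fold higher (edgeR adjusted p = 0.0306). All 8 treated libraries held Cd69 and none of the 4 untreated ones did. In treated tumours 1 and 2, a single NK cell held 5 of 17 and 7 of 29 Cd69 UMIs, and 5 of 19 and 18 of 111 Cxcr4 UMIs. For Klf2 the cell with the most UMIs held 6 of 24 and 15 of 64, and for Bhlhe40 5 of 33 and 7 of 99. Klf6 stood at 2.14, 3.10 and 4.83, a log2 change of 0.94 ± 0.70 that did not pass (edgeR adjusted p = 0.652). Tsc22d3, below the filter, had 0, 5 and 30 UMIs. Its ratio to the floor of 3 counts was 1.69 over both treated tumours, 1.00 in treated tumour 1 and 1.91 in treated tumour 2. Il7r had 0, 0 and 1 UMIs.

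All 4 NK calls were lost under some alternatives. No member was called with NK cells thinned to 300 UMIs, with pool 1 left out or with pool 2 left out (edgeR adjusted p for Klf2 0.323 and 0.0541 without these pools). Leaving out pool 4 ended the calls of Cxcr4 (0.154) and Cd69 (0.0657), plain library sizes that of Cxcr4 (0.0578), and fitting without the filter all but that of Klf2. DESeq2 called none. Without the NK cells that held a UMI of the shorter myeloid and neutrophil sets, Klf2, Cxcr4 and Bhlhe40 passed and Cd69 did not (edgeR adjusted p = 0.142). Among NK cells with no CD3 or T cell receptor constant UMI (24, 9 and 55 cells), Bhlhe40 had 0, 5 and 34 UMIs, Klf2 0, 1 and 23, Cxcr4 1, 3 and 26 and Cd69 0, 2 and 8. In treated tumour 1, 95.8% of the Klf2 UMIs of NK cells lay in cells that also held a CD3 or T cell receptor UMI, against 64.1% in treated tumour 2. Those cells held 29924 of 38697 UMIs of all genes in treated tumour 1 and 80388 of 122216 in treated tumour 2. Per 10000 UMIs, Klf2 stood at 7.69 in them and 1.14 in the other NK cells of treated tumour 1, with overlapping counting intervals. In treated tumour 2 it stood at 5.10 and 5.50.

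No partner gene passed in NK cells. Of 4 tested recirculation genes Itgb1 stood at 7.72, 3.62 and 5.32 and Satb1 at 4.72, 4.65 and 3.36. Of 7 tested residency genes Rgs1 stood at 7.29, 16.8 and 21.4, Rgs2 at 6.43, 5.69 and 11.4 and Ccl5 at 22.3, 23.5 and 7.77. Ccl5 in treated tumour 1 lay near its untreated level. In the IL-7 receptor pathway (5 tested) Il2rg stood at 3.00, 7.49 and 7.36, Jak1 at 7.72, 9.82 and 15.7 and Bcl2 at 15.0, 7.49 and 11.6. In the CXCR4 pathway (5 tested) Gnai2 stood at 13.7, 8.01 and 7.12, Grk2 at 3.43, 3.88 and 3.52 and Mif at 1.72, 2.33 and 2.78. Of 5 tested glucocorticoid targets Dusp1 stood at 2.15, 7.24 and 6.38, Zfp36 at 1.29, 4.39 and 3.11 and Txnip at 2.57, 3.88 and 2.78. None of the other Kruppel-like factors was tested, and Klf13 stood at 2.15, 1.81 and 1.47. The 12 tested dissociation stress genes had a median log2 change of 0.86 against 0.05 over all genes, with a summed level of 84.9, 133 and 119. Nfkbia stood at 6.86, 28.2 and 10.96, Btg1 at 11.2, 16.0 and 23.0 and Hspa8 at 18.9, 23.8 and 18.8, and the part of the list in the NK result was not tested.

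**Figure D3:**
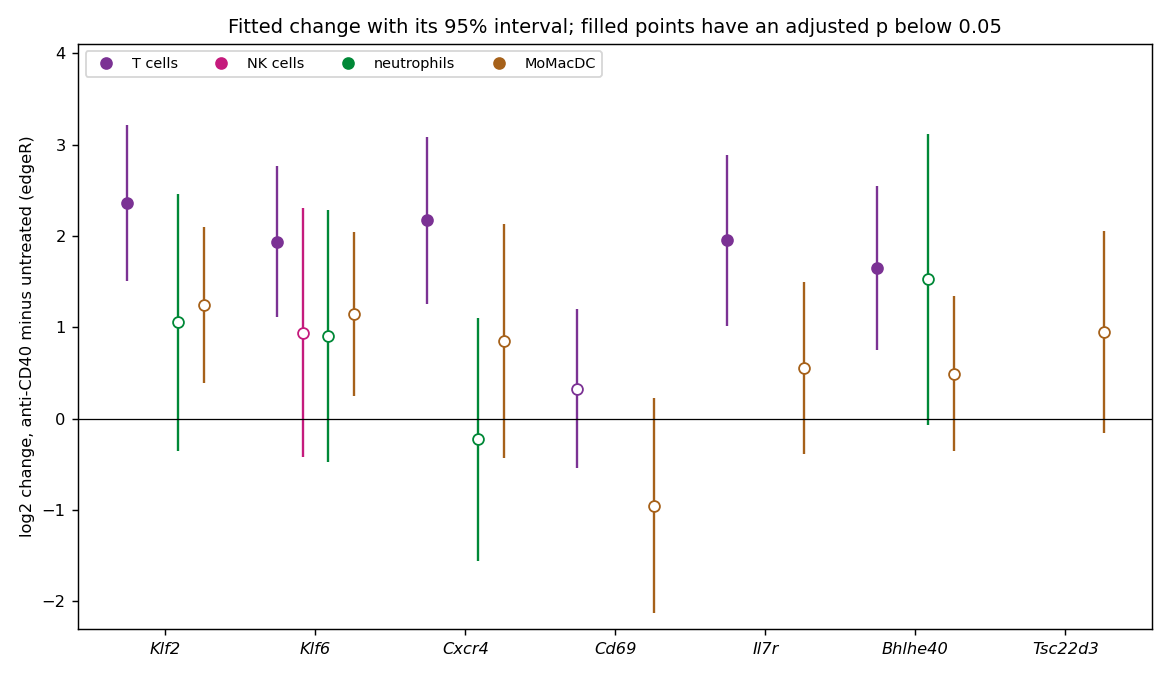
Fitted log2 change after anti-CD40 (vertical axis) with its 95% interval for each gene (horizontal axis) and cell type, for genes with more than 3 UMIs in the untreated tumour. Filled points, all of them in T cells, have an adjusted p below 0.05. In NK cells only Klf6 had enough untreated UMIs to be drawn.

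In neutrophils none of the 6 genes that could be tested passed, where 12 of 2713 genes did (0.442%), and none of the 6 had an unadjusted p below 0.05. Klf6 stood at 14.9, 16.5 and 20.7, which is above its level in every other cell type of the same tumour, and Klf2 at 8.95, 14.4 and 10.7. Cxcr4 was highest in the untreated neutrophils, at 10.2 against 4.52 and 7.18, with a log2 change of -0.23 and a 95% interval from -1.56 to 1.11. The scaling matters here: TMM puts the median log2 change of all tested genes at 0.29 and unadjusted library sizes at -0.28, and relative to that median Cxcr4 was at -0.51 and -0.54. Bhlhe40 stood at 2.98, 4.18 and 7.30, Tsc22d3 at 1.28, 2.88 and 3.01 and Cd69 at 1.28, 0.856 and 1.04, where the Cd69 change is 0.11 with TMM and -0.45 with library sizes but -0.17 and -0.18 relative to the median of all genes. The untreated values rest on 49 cells and 3 to 35 UMIs per tested gene.

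The deposited annotation splits neutrophils into subsets, named N1a to N5, and the genes differed among them in the same order in both treated tumours for Klf6 and Bhlhe40. The subsets were defined from the same cells, so these levels are given as a description with no test. Klf6 stood at 9.81 and 9.44 in N1a (treated tumours 1 and 2), 12.9 and 13.3 in N1b, 13.6 and 16.7 in N2, 22.1 and 20.1 in N3 and 38.8 and 32.2 in N5. Bhlhe40 went from 0.265 and 0.525 in N1a to 10.02 and 7.60 in N3 and 12.6 and 14.6 in N5. Klf2 took another course, with its highest levels in N1b (17.9 and 26.6) and N2 (18.9 and 17.6) and low ones in N5 (6.17 and 7.41). Tsc22d3 was likewise highest in N2, at 3.94 and 6.37, against 1.78 and 1.53 in N5. Cxcr4 was lowest in N1a (1.59 and 3.67), and its highest subset was N5 in tumour 1 (8.51) but N3 in tumour 2 (10.1). The mix of subsets differed between tumours: N1a and N1b made up 128 and 148 of 700 neutrophils in treated tumour 1, 16 and 14 of 215 in treated tumour 2, and of 49 untreated neutrophils 4 were N1b. How far this mix sets the levels of whole neutrophils was not tested.

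**Figure D4:**
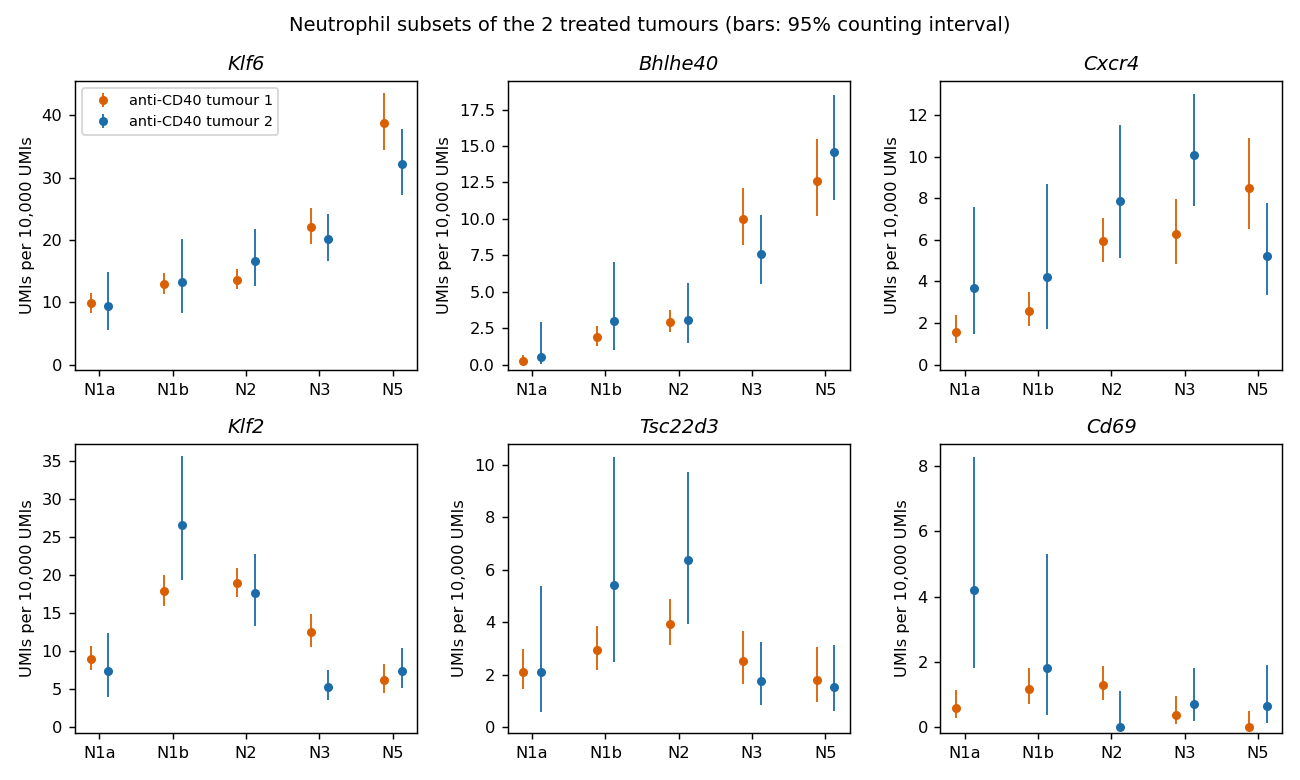
Levels in UMIs per 10000 UMIs (vertical axis) in the neutrophil subsets N1a, N1b, N2, N3 and N5 (horizontal axis) of both treated tumours, with 95% Poisson counting intervals. Klf6 and Bhlhe40 are highest in N5, Klf2 in N1b or N2. Subset N4, with 4 cells, is not drawn.

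In MoMacDC none of the 7 genes passed, where 29 of 7099 genes did (0.409%). Klf2 and Klf6 came nearest. Klf2 stood at 2.39, 6.11 and 5.13, with a log2 change of 1.25 and a 95% interval from 0.39 to 2.10 (edgeR adjusted p = 0.303). Klf6 stood at 3.16, 5.94 and 7.68, with a log2 change of 1.14 (edgeR adjusted p = 0.407). For both genes all 8 treated libraries lay above the 4 untreated ones. Neutrophil markers in MoMacDC were also higher in both treated tumours, at 2.63, 21.9 and 9.72 per 10000 UMIs. So were mature dendritic cell markers, at 5.09, 18.6 and 11.9. Both marker sums and Klf2 were higher in treated tumour 1 than in treated tumour 2, while Klf6 was higher in treated tumour 2. In MoMacDC with 0 UMIs of mature dendritic cell markers, Klf2 stood at 2.42, 6.23 and 4.94 and Klf6 at 3.05, 4.92 and 7.26. The part of both marker sets in the Klf2 and Klf6 values was not tested. Cxcr4 split the treated tumours, at 2.00 untreated, 2.05 in treated tumour 1 and 4.81 in treated tumour 2. Tsc22d3 stood at 0.754, 0.940 and 1.83, Bhlhe40 at 1.91, 2.42 and 2.84 and Il7r at 0.667, 0.755 and 1.12. Cd69 was low in all, at 0.404, 0.118 and 0.254. T cell markers in MoMacDC summed to 1.53, 0.0671 and 0.577 per 10000 UMIs, and NK markers to 0.754, 0.0336 and 0.227. Their part in the Cd69 values was not tested. 1 partner gene passed: Cish, a feedback inhibitor of cytokine receptors, fell by 1.90 on the log2 scale (1.07, 0.252 and 0.296; edgeR adjusted p = 0.0461).

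The difference in treatment effect against MoMacDC was tested in a joint fit of the 12 sums, and no member passed for T cells (13 of 4538 genes, 0.286%), NK cells (6, 0.132%) or neutrophils (6, 0.132%). For T cells the differences were positive for all 7 genes, from 0.73 for Klf6 to 2.41 for Tsc22d3 on the log2 scale, and the smallest edgeR adjusted p was 0.651. The median T cell difference over all tested genes was -0.06, and the share of genes with a positive difference was not counted. Because 6 of the 7 genes had been called higher in these same T cells, their shared sign is no separate support. The Klf2 difference of 1.10 had a 95% interval from -0.38 to 2.58. In NK cells Cd69 came nearest (edgeR adjusted p = 0.0736), at 0, 4.39 and 2.37 against 0.404, 0.118 and 0.254 in MoMacDC. A call in T or NK cells and none in MoMacDC is therefore not shown to be a difference between the cell types.

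By cell type the 7 genes fell into an order that is given without a test. In untreated cells neutrophils held the highest level of Klf2, Klf6, Cxcr4, Bhlhe40 and Tsc22d3, with counting intervals that overlap those of the other types for Bhlhe40 and Tsc22d3. In the treated tumours T cells held the highest Il7r, followed by MoMacDC, and in NK cells and neutrophils it was at 0 or 1 UMI. Bhlhe40 was highest in NK cells in both treated tumours, at 8.53 and 8.10. T cells followed in treated tumour 1, at 5.08, and neutrophils in treated tumour 2, at 7.30, each with an overlapping counting interval. Cd69 was highest in untreated T cells (2.48), in NK cells of treated tumour 1 (4.39) and in T cells of treated tumour 2 (3.83), with a counting interval that overlaps that of the next type in each case.

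The share of cells with UMIs of 2 or more of the 7 genes was higher after treatment in all 4 cell types. Whether it exceeds what the levels of the single genes give was not tested. Among cells thinned to 300 UMIs, 4.03% of 124 untreated T cells held UMIs of 2 or more of the genes, against 27.7% of 47 and 26.8% of 127 treated ones. In NK cells the shares were 0 of 35, with the same limit as above for cells with a UMI, against 18.5% of 27 and 17.2% of 122. Neutrophils were at 14.6%, 24.3% and 29%, and MoMacDC at 4.09%, 7.88% and 13.2%. The unthinned shares were higher throughout, with 11.3%, 52.1% and 56.3% in T cells.

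**Figure D5:**
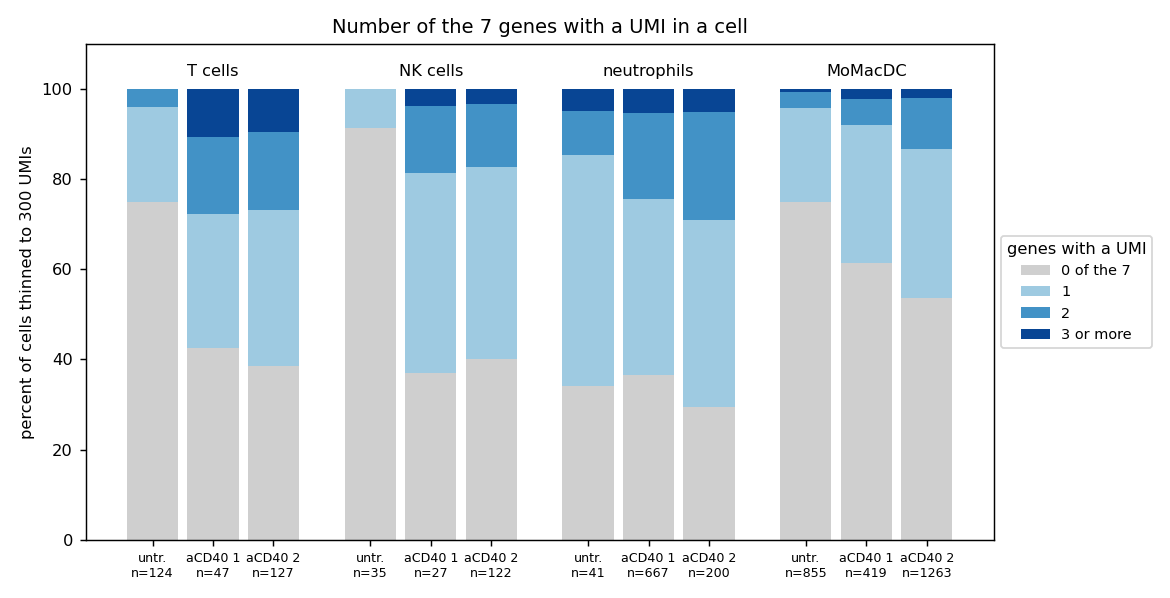
Share of cells (vertical axis, percent of cells thinned to 300 UMIs) by the number of the 7 genes with a UMI, for each cell type and tumour (horizontal axis, with the number of cells). Cells with 1 or more of the genes made up 25% of untreated T cells and 57.4% and 61.4% of treated ones, and 8.57% of untreated NK cells against 63% and 59.8%.

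The genes most like each member were found by Pearson's r of log2(CPM + 50) over the 12 sums among 1659 genes, a description over sums that share tumours, libraries and depth. Klf6 was most like S100a9 (r = 0.95) and Antxr2 (0.94), and Il7r most like Il10 (0.93) and Arl5a (0.89). Klf2 was most like Tnip1 (0.89) and Fam49b (0.88), and Tsc22d3 most like Klf2 (0.86) and Sirt2 (0.85). Cxcr4 was nearest to Serinc1 (0.84) and Tax1bp1 (0.82), Bhlhe40 to Fam107b (0.84) and Serinc1 (0.83), and Cd69 to Isy1 (0.91) and Arhgap9 (0.88).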

How the data were processed

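Single-cell RNA was measured with inDrops in CD45+ cells of 1 untreated and 2 anti-CD40-treated MC38 tumours. The authors deposited UMI counts per cell and gene for 4 sequencing pools, with a table of each cell's animal, library, condition, cell type and neutrophil subset (names, not measurements). bcl2fastq, STAR and GRCm38 are named in the submitters' processing notes, and how cells were filtered, annotated and freed of doublets is not given in the sources used here. All 4440 cells of the deposited table were kept, no doublet caller was run, and cells with 3 or more UMIs of another type's markers were left out as an alternative. In the untreated tumour and treated tumours 1 and 2, these were 2.04%, 42.6% and 21.9% of neutrophils and 1.23%, 16.5% and 5.79% of MoMacDC. In T cells they were 14.7%, 2.08% and 3.70%, and in NK cells 9.76%, 10.7% and 5.47%.

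Counts were summed per tumour and cell type. Totals ran from 23315 UMIs (untreated NK cells) to 1454851 (MoMacDC of treated tumour 2), and levels are UMIs per 10000 UMIs with exact Poisson 95% intervals. Treatment was tested with edgeR 4.0.16 (R 4.3.3; quasi-likelihood, robust, TMM, filterByExpr) on all genes of a cell type with Benjamini-Hochberg adjustment at 0.05, and the difference between cell types as an interaction in the 12 sums with tumour as a block. The untreated group is 1 animal, so its spread is taken from the 2 treated tumours and, through the shared prior, from other genes, with 1 residual degree of freedom. The prior was estimated as infinite in T cells, NK cells and neutrophils, so there each p-value rests on a spread shared over genes and not on the gene's own. Scripts were tested on simulated data. Shares of cells have exact binomial intervals, beside a limit of 3 counts where a share is 0, in cells thinned to 300 UMIs, with shallower cells left out. Genes were annotated with GENCODE (GRCm38), and promoters come from RefSeq (GRCm38.p6).

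The members, lists and tests were chosen with earlier results of these data known, so the calls are no independent support. Named besides the 7 members are list genes that passed the test, the 3 genes of each list with the most UMIs in T and NK cells, and the 2 genes most alike to each member among those with a mean of 100 CPM or more; 1 gene that this rule names is not reported here. The lists were recirculation and naive state (14 genes measured), tissue residency (15), the IL-7 receptor pathway (13), the CXCR4 pathway (10), glucocorticoid targets (12), other Kruppel-like factors with Bhlhe41 (6) and dissociation stress (17). In neutrophils none of their genes passed (median log2 change from -0.12 in residency to 0.90 in glucocorticoid targets, over all genes 0.29), and in MoMacDC 1 did. Alternatives were DESeq2 1.42.0, plain library sizes, no filter, thinned cells, second-type cells left out, each pool left out, each treated tumour alone and values within pools. Further alternatives, chosen after seeing the data, left out the shallowest 10% of cells in each tumour or T cells without a CD3 or T cell receptor constant UMI. Another of these left out T and NK cells with a UMI of the shorter myeloid and neutrophil sets.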

Additional observations from a re-analysis of the deposited data

Results flagged for a closer look

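Cd69 stood higher in the NK cells of both treated tumours and lower in the MoMacDC of both, against the untreated tumour. These levels point in opposite directions. The test of the difference in treatment effect did not pass after adjustment (edgeR interaction, adjusted p = 0.0736), and it passed with pool 4 left out (edgeR adjusted p = 0.0304). In MoMacDC of treated tumour 2 the Cd69 ratio was 0.63 (counting interval 0.365 to 1.11), which is within counting error. The Cd69 change in MoMacDC itself did not pass (edgeR adjusted p = 0.681). By UMIs per 10000 UMIs, Cxcr4 was at 10.2, 4.52 and 7.18 in neutrophils and at 2.00, 2.05 and 4.81 in MoMacDC, so its treated levels lay below the untreated one in the former and above it in the latter. In MoMacDC of treated tumour 1 the ratio was 1.02 (counting interval 0.787 to 1.33), so that difference was within counting error, and the fitted neutrophil change in treated tumour 2 alone was 0.27. The test of that difference did not pass either (edgeR interaction, adjusted p = 0.918). With 1 and 2 tumours per group, no group was large enough for a test of single outlying tumours.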

How the results depend on the processing

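No paired analysis was possible because the untreated group is 1 animal, which shares pools 1 and 2 with treated tumour 1 and leaves fewer than 2 pairs. In T cells 6 members and 39 genes were called, with DESeq2 0 and 3, in thinned cells 2 and 14, in T cells with a CD3 or T cell receptor UMI 6 and 25, and with single pools left out 3 to 6 and 19 to 32. In NK cells 4 and 15 were called, without the filter 1 and 8, with DESeq2 0 and 1, in thinned cells 0 and 2, and with pools left out 0 to 4 and 1 to 16. In neutrophils the 12 genes called became 7 without the filter, 5 in thinned cells, 6 without second-type cells and 3 to 25 with pools left out, with no member called in any. In MoMacDC the 29 genes became 89 with plain library sizes, 141 without the filter, 14 with DESeq2, 68 in thinned cells, 124 without second-type cells, 9 without the shallowest 10% of cells and 1 to 27 with pools left out, with no member called in any. Differences against MoMacDC gave 13 genes in T cells (2 thinned, 0 to 12 with pools left out), 6 in NK cells (0 thinned, 0 to 7) and 6 in neutrophils (3 thinned, 5 to 19), and members called went from 0 to 1 in NK cells with pools left out. The causes were not tested.

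Reversed signs concerned changes that did not pass, and those between scalings in neutrophils follow a shift of all genes: relative to the median of all genes, Cd69 was at -0.17 (TMM) and -0.18 (library sizes), and the differences against MoMacDC were -0.85 and -0.93 for Klf2 and -0.89 and -0.96 for Klf6. In neutrophils the Cxcr4 change turned to 0.0031 without the filter and ran from -0.40 to 0.09 with pools left out, to 0.27 in treated tumour 2 alone. The Cd69 change turned to -0.45 with plain library sizes and -0.33 without second-type cells, and ran from -0.34 to 0.89 with pools left out. Of the differences against MoMacDC, Il7r in T cells turned to -0.0212 in thinned cells and ran from -0.0250 to 3.28 with pools left out, and Klf6 in NK cells ran from -0.24 to 0.51. In neutrophils the Klf2 difference turned to -0.75 with library sizes, -0.28 in thinned cells and ran from -0.37 to 1.88 with pools left out. The Klf6 difference turned to -0.79 with library sizes and ran from -0.22 to 1.91, and the Cxcr4 difference ran from -0.96 to 0.44. Unthinned shares of cells with 2 or more members were 11.3%, 52.1% and 56.3% in T cells, 64.3% and 45.3% in treated NK cells, 61.9% and 56.3% in treated neutrophils and 8.72%, 39.1% and 45.4% in MoMacDC. For Il7r they were 35.4% and 27.4% in treated T cells, and for Bhlhe40 57.1% and 45.3% in treated NK cells. The depth of 41 untreated NK cells and 49 untreated neutrophils limits every comparison that rests on them.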

Other observations

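Within MoMacDC, cells with 2 or more UMIs of mature dendritic cell markers (Ccr7, Fscn1, Ccl22, Cacnb3, Il4i1 and Relb) are a range and not a type: 47, 55 and 77 cells in the untreated tumour and treated tumours 1 and 2, with 52, 30 and 69 further cells at 1 UMI. In these cells Klf6 stood at 4.35, 15.7 and 17.1 per 10000 UMIs and Bhlhe40 at 6.53, 7.07 and 9.86. Il7r stood at 3.92, 2.75 and 2.72, and Cd69 had 0 UMIs in all 3 tumours. In T cells with a Foxp3 UMI, the marker of regulatory T cells, Klf2 had 1 UMI in 25 untreated cells, 7 in 13 cells of treated tumour 1 and 37 in 32 cells of treated tumour 2, and Tsc22d3 had 1, 7 and 19. In 2 untreated basophils Cd69 had 3 UMIs, and in 20 untreated B cells Klf2 and Klf6 had 3 UMIs each. These values were not tested.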
